A study of Rattus norvegicus with 4 samples.

Results

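Exosomes released by hypoxic H9c2 cells were compared with those released by normoxic H9c2 cells, miRNA by miRNA, over all 765 mature rat miRNAs of the deposited small RNA-seq table. Of these, 145 were listed above 0 in at least 1 exosome library, 73 in both, 71 in hypoxic exosomes only and 1 in normoxic exosomes only, and 620 were listed at 0 in both. H9c2 is an immortal cardiomyoblast line from rat heart. Both groups were grown for 48 h in medium with serum that had been depleted of exosomes by ultracentrifugation. The normoxic group was kept in air with carbon dioxide, and the hypoxic group in a sealed chamber with an oxygen-absorbing pack (AnaeroPack). The vesicles were then pelleted from the conditioned medium by ultracentrifugation. Each condition was 1 library of 1 cell line (2 exosome libraries of 4 in the series). No difference below thus has a replicate library, and no test between conditions was possible. The paper also measured some randomly selected exosomal miRNAs by qRT-PCR, and those values were not used here.

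A miRNA is a short RNA that guides the Argonaute protein to messenger RNAs, mainly by pairing of its seed, bases 2 to 8 from its 5′ end, and lowers their output. Exosomes are small vesicles of endosomal origin that carry a part of the miRNAs of the cell into the medium, and other cells can take them up. In low oxygen the transcription factor HIF raises a set of miRNAs, of which miR-210 is the best known. miRNAs whose level hypoxia changes, up or down, are called hypoxamiRs.

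The sequences that the results turn on are given first, 5′ to 3′, as listed by RefSeq for the rat assembly GRCr8, with the seed in capitals. Sequences were matched by name for 133 of the 145 exosomal miRNAs. The first set is shown because these were the most abundant miRNAs of the exosomes, which made up most of the miRNA reads of both libraries. miR-320-3p also belongs to it.
miR-146a-5p: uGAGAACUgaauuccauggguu
miR-22-3p: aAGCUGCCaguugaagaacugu
miR-129-5p: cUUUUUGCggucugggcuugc
miR-3557-5p: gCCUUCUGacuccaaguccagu
miR-143-3p: uGAGAUGAagcacuguagcuca
miR-423-5p: uGAGGGGCagagagcgagacuuuu
miR-378a-3p: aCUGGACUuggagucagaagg
miR-24-3p: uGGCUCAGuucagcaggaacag
miR-21-5p: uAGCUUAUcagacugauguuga
miR-210-3p: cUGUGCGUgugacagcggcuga
miR-125b-1-3p: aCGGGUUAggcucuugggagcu

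Another set holds miRNAs with the highest ratios of hypoxia to normoxia. Their seeds differ from one another.
miR-186-5p: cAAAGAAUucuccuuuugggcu
miR-214-3p: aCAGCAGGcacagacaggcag
miR-30a-5p: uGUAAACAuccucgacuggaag
miR-23a-3p: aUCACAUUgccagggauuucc
miR-532-5p: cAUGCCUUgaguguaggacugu

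The let-7 miRNAs are shown because they share the seed GAGGUAG and differ only in the bases after it, while their ratios spread from 1.75 to 16.1.
let-7i-5p: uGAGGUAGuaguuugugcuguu
let-7b-5p: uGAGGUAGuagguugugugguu
let-7c-5p: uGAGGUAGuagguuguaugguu
let-7a-5p: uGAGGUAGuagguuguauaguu
let-7g-5p: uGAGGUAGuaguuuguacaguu
let-7f-5p: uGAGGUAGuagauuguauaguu

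The last set is shown because these miRNAs had ratios below the median of all, and because miR-1b, miR-122-5p, miR-192-5p and miR-127-3p were also under 50 RPM in normoxic cells.
miR-1b: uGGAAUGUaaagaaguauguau
miR-26a-5p: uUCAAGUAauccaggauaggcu
miR-126a-3p: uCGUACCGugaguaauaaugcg
miR-128-3p: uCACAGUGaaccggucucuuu
miR-122-5p: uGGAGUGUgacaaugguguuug
miR-192-5p: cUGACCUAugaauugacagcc
miR-127-3p: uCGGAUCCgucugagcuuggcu

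The deposited unit is RPM, a read number scaled to the size of each library. Within a library the values advanced in equal steps, with none further than 0.1 step from a whole number and none between 0 and 10 steps, and a step was read as 1 read. The scale then corresponds to 11866515 reads for the normoxic library and 12353415 for the hypoxic one, of which the miRNAs held only 13598 and 108860. They were thus 0.115% of the scale in normoxic exosomes (95% exact binomial interval 0.113% to 0.117%) and 0.881% in hypoxic exosomes (0.876% to 0.886%). The sum of miRNA RPM was 7.69-fold higher in hypoxic exosomes. In the cells it was 0.528 of the normoxic sum. RPM does not tell whether more vesicles were released or whether each carried more miRNA. Intervals here and below are at 95%, cover counting error only, and treat PCR reads as independent molecules, which they are not.

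Among the 73 miRNAs listed in both exosome libraries, 62 had a ratio of hypoxic to normoxic RPM above 2 (84.9%) and 1 had a ratio below 0.5 (1.37%). The median ratio was 6.73, the quartiles were 3.29 and 12.2, and the range ran from 0.418 to 29.7. The counting interval of the ratio lay wholly above 1 for 65 miRNAs, held 1 for 7 and lay wholly below 1 for 1. Another 10 miRNAs lay between 0.5 and 2, from 0.727 to 1.83. Most miRNAs thus had higher RPM in hypoxic exosomes.

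A second scale, the share of each miRNA in the miRNA reads of its library, takes the difference in the miRNA total out of the comparison. On it a miRNA with an RPM ratio of 7.69 has a ratio of 1. Of the 73 miRNAs, 34 had a larger share in hypoxic exosomes (46.6%) and 39 a smaller one (53.4%). A ratio of shares above 2 was found for 10 (13.7%) and below 0.5 for 21 (28.8%). The counting interval of the ratio of shares lay wholly above 1 for 21 miRNAs, wholly below 1 for 29 and held 1 for 23. Shares thus differed in both directions beyond counting error, with no replicate to set beside them.

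**Figure D1:**
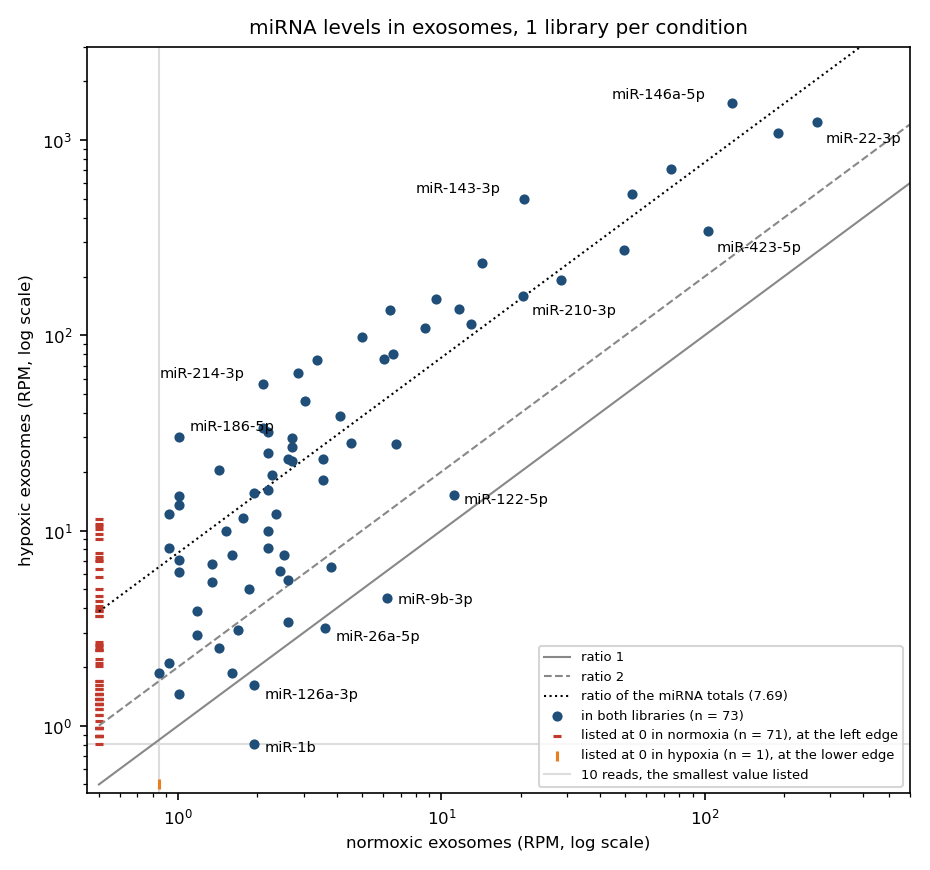
Level of each miRNA in normoxic (horizontal) and hypoxic (vertical) exosomes in RPM on log axes, 1 point per miRNA and 1 library per condition; the solid, dashed and dotted lines are ratios of 1, 2 and 7.69. Of the 73 points in both libraries, 4 lie below the solid line, and the 71 miRNAs listed at 0 in normoxic exosomes are dashes at the left edge, none above 141 reads.

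The 12 most abundant miRNAs of the exosome libraries came to 13 names in all, which held 84.6% of the miRNA reads in normoxia and 80.4% in hypoxia. Of these 13, 8 had a larger share in hypoxia and 5 a smaller one. Abundance was more concentrated in normoxic exosomes, where 3 miRNAs made up 50% of the miRNA reads and 21 made up 90%, against 4 and 23 in hypoxic exosomes.

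miR-146a-5p, which restrains NF-κB signalling, was at 127 RPM in normoxic and 1551 RPM in hypoxic exosomes. Its ratio was 12.2 (11.6 to 12.8), and its share went from 11.1% to 17.6%, the largest of the hypoxic library. miR-22-3p, a miRNA of heart and skeletal muscle known in mice for its part in cardiac hypertrophy, led the normoxic library. It stood at 267 RPM in normoxia and 1236 RPM in hypoxia, a ratio of 4.63 (4.46 to 4.82). Although its RPM was higher, its share was 23.3% in normoxia and 14.03% in hypoxia. miR-320-3p, which matures without the Drosha step that other miRNAs need, had 189.8 and 1088 RPM. Its ratio of 5.73 (5.48 to 5.995) also lay under the ratio of the totals, and its share was 16.6% in normoxia and 12.3% in hypoxia.

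miR-423-5p had the lowest ratio of the 13. Its level was 103 RPM in normoxia and 343 RPM in hypoxia, a ratio of 3.34 (3.13 to 3.56), and its share was 8.98% and then 3.90%. miR-143-3p, a miRNA of smooth muscle and fibroblasts, had the highest. It was listed at 20.6 RPM in normoxia and 499 RPM in hypoxia, a ratio of 24.3 (21.3 to 27.7). Its share of 1.79% in normoxia compares with 5.66% in hypoxia. The summed share of the miRNAs with the largest losses, miR-22-3p, miR-423-5p and miR-320-3p, fell by 18.5 percentage points, which was 75.6% of all points lost by the 73 miRNAs. With these 3 left out of both totals, the remaining miRNA RPM was 10.5-fold higher in hypoxia. Because the 3 were chosen for their losses, leaving them out could only raise the ratio of 7.69. The largest gains, those of miR-146a-5p, miR-143-3p and miR-129-5p, came to 11.9 points.

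The other members of the 13 had ratios from 5.57 to 16.5. miR-129-5p, a miRNA best known from brain, was at 74.4 RPM in normoxia and 709.8 RPM in hypoxia, a ratio of 9.54 (8.90 to 10.2). miR-3557-5p was at 53.2 and 527 RPM, a ratio of 9.92 (9.14 to 10.8). miR-378a-3p, which lies in an intron of the gene of the metabolic coactivator PGC-1β, was at 49.3 and 275 RPM, a ratio of 5.57 (5.10 to 6.10). The last pair come from opposite strands of 1 locus and are treated together further on. miR-24-3p was at 14.2 and 235 RPM, a ratio of 16.5 (14.1 to 19.4). miR-125b-1-3p was at 13.0 and 115 RPM, with a ratio of 8.83 (7.47 to 10.5). Its interval, like that of miR-210-3p, held the ratio of the totals.

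miR-210-3p, the HIF target most often used as a marker of hypoxia, was at 20.4 RPM in normoxic and 159 RPM in hypoxic exosomes. The ratio of 7.78 (6.81 to 8.93) is close to the 7.69 of all miRNAs together, and its share was 1.78% in normoxia and 1.80% in hypoxia. In the cells its ratio was 1.48, from 2649.9 RPM to 3921 RPM, while the median ratio of the miRNAs in both cell libraries was 0.612. miR-21-5p, an abundant miRNA of growing and stressed cells, was at 28.6 and 192 RPM in exosomes, a ratio of 6.73 (6.001 to 7.56), which is also the median of the 73. It took 54.9% of the miRNA reads of normoxic cells and 48.5% of those of hypoxic cells, against 2.49% and 2.18% in the exosomes.

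**Figure D2:**
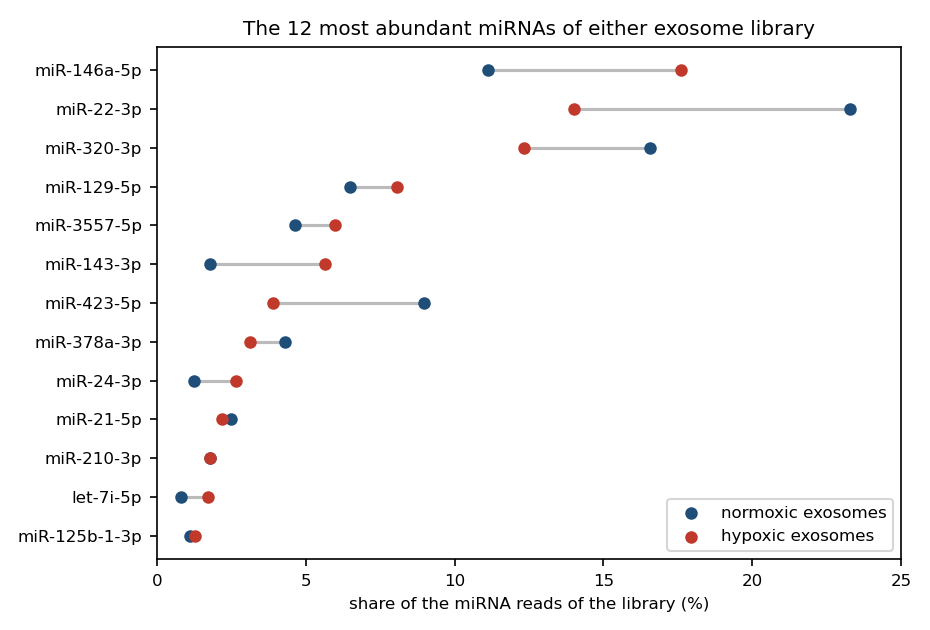
Share of the miRNA reads (%) of the 13 miRNAs that were among the 12 most abundant of the normoxic (blue) or the hypoxic (red) exosome library. miR-146a-5p and miR-143-3p lie to the right in hypoxia, miR-22-3p, miR-320-3p and miR-423-5p to the left, and the points of miR-210-3p coincide.

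The highest ratios among miRNAs with at least 50 reads in 1 exosome library ran from 15.8 to 29.7, and 3 of these 10 miRNAs, miR-143-3p, miR-24-3p and let-7i-5p, were also among the most abundant. miR-186-5p was at 1.01 RPM in normoxia, which is 12 reads, and at 30.03 RPM in hypoxia, a ratio of 29.7 with a wide interval of 16.8 to 58.0. miR-214-3p, which is made from the Dnm3os transcript of mesenchymal cells, was at 2.11 and 56.4 RPM, a ratio of 26.8 (17.99 to 41.7). miR-30a-5p was at 2.87 and 64.2 RPM, a ratio of 22.4 (15.9 to 32.6). These intervals overlap one another, so counting error does not separate the leading miRNAs from miR-143-3p.

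miR-23a-3p, of the miR-23a, miR-27a and miR-24-2 cluster, was at 3.37 RPM in normoxia and 74.8 RPM in hypoxia, a ratio of 22.2 (16.2 to 31.3). miR-151-3p was at 6.40 and 134 RPM, with a ratio of 20.97 (16.7 to 26.7). miR-532-5p, of a cluster on the X chromosome of mammals, was at 4.97 and 97.9 RPM, with a ratio of 19.7 (15.2 to 26.02). Next came miR-24-3p, then let-7i-5p with 9.52 and 153 RPM and a ratio of 16.1 (13.3 to 19.6), and miR-146b-5p with 2.11 and 33.4 RPM and a ratio of 15.8 (10.6 to 24.8). The ratios of shares of these 10 miRNAs, miR-143-3p included, ran from 2.06 to 3.86. Of the 10 miRNAs with a ratio of shares above 2, 6 had a whole interval above it.

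At the other end 4 miRNAs had fewer RPM in hypoxic exosomes. miR-1b, a muscle miRNA with the seed of miR-1-3p, was at 1.94 RPM in normoxia and 0.810 RPM in hypoxia, which is 23 and 10 reads. Its ratio of 0.418 (0.177 to 0.912) was the only one with an interval wholly below 1. miR-9b-3p was at 6.24 and 4.53 RPM, a ratio of 0.727 (0.504 to 1.04). miR-126a-3p, an endothelial miRNA from an intron of Egfl7, was at 1.94 and 1.62 RPM, a ratio of 0.835 (0.435 to 1.59). For miR-26a-5p the values were 3.62 and 3.16 RPM and the ratio 0.871 (0.550 to 1.38), so that for the last 3 counting error alone covers the difference on RPM. On shares the ratios of these 4 were 0.0543, 0.0945, 0.109 and 0.113, and all their intervals lay below 1.

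miR-122-5p, the miRNA that makes up most of the miRNA of hepatocytes, was the most abundant of the miRNAs with a ratio near 1. It was at 11.1 RPM in normoxic and 15.1 RPM in hypoxic exosomes, which is 132 and 187 reads. The ratio was 1.36 (1.08 to 1.71), and the share was 0.971% in normoxia and 0.172% in hypoxia. Among the 16 miRNAs with at least 100 reads in normoxic exosomes, the median ratio was 9.19 and miR-122-5p had the lowest.

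Several further miRNAs with low ratios had too few normoxic reads for a narrow interval. miR-128-3p, a neuronal miRNA, was at 1.60 and 1.86 RPM, a ratio of 1.16 (0.606 to 2.26). miR-9a-5p, a miRNA of neural progenitors, was at 2.61 and 3.40 RPM, a ratio of 1.30 (0.799 to 2.14). miR-7a-5p was at 1.69 and 3.08 RPM, a ratio of 1.83 (1.04 to 3.31). miR-192-5p, which is rich in liver, gut and kidney, was at 2.44 and 6.23 RPM, a ratio of 2.55 (1.64 to 4.06). miR-339-5p was at 1.85 and 5.02 RPM, a ratio of 2.71 (1.64 to 4.63), and miR-127-3p, an imprinted miRNA of the Dlk1-Dio3 locus, was at 1.35 and 5.42 RPM, a ratio of 4.02 (2.31 to 7.44). For every miRNA of this paragraph the interval of the ratio lay below 7.69. The threshold of 2 fell between miR-7a-5p at 1.83 and let-7g-5p at 2.14, whose intervals overlap.

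**Figure D3:**
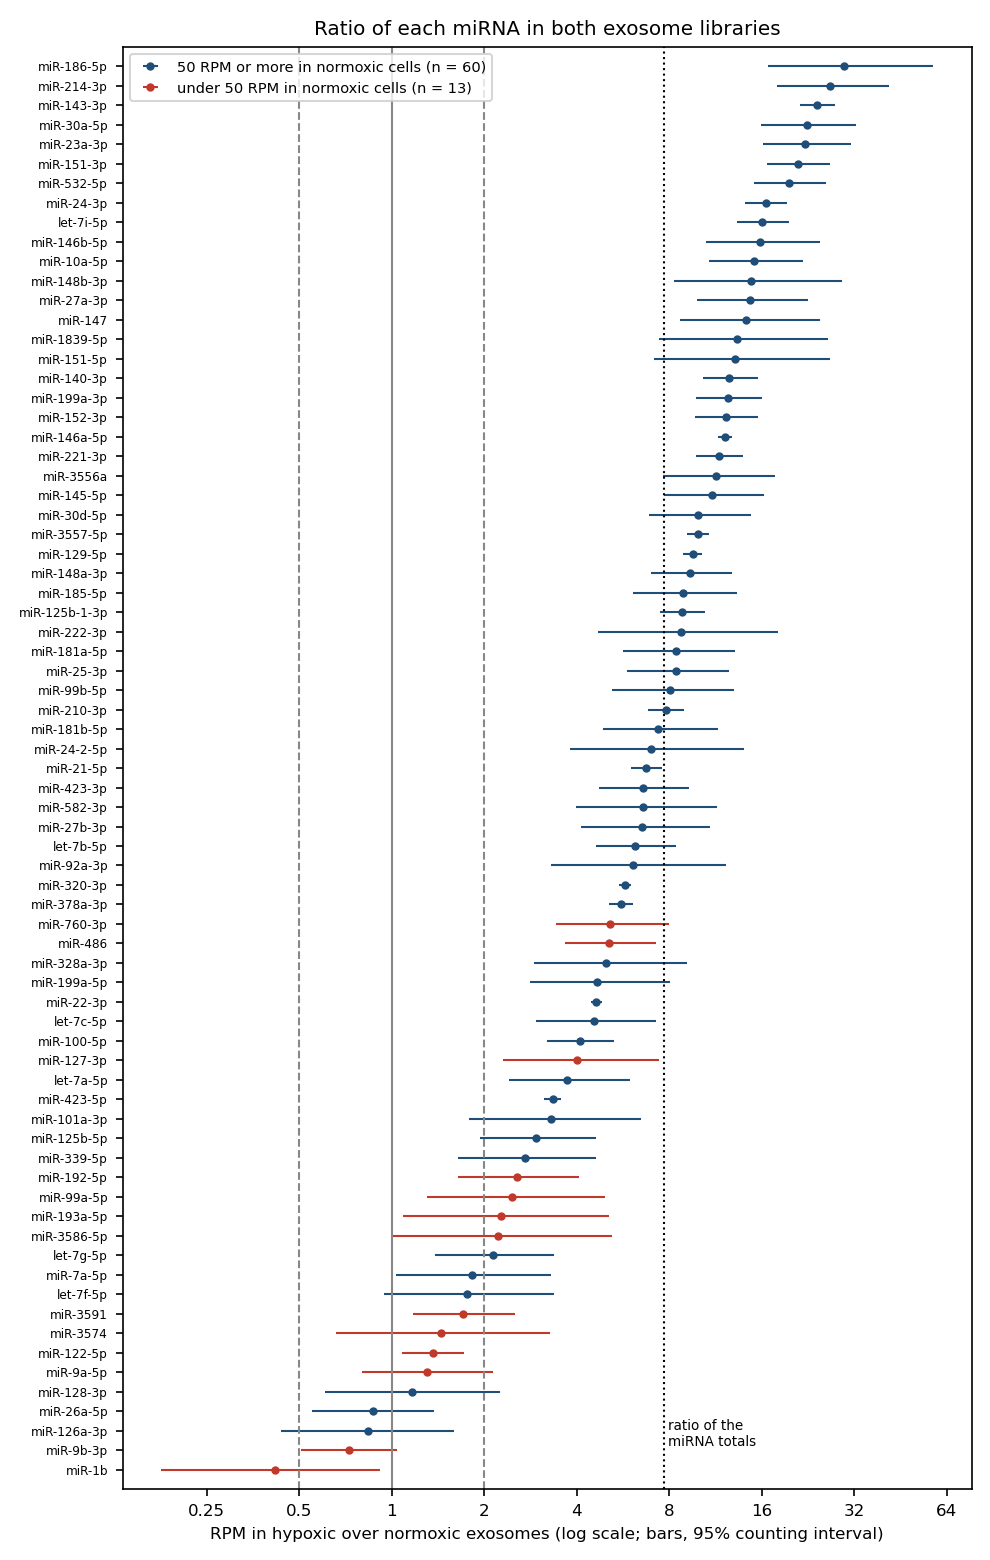
Ratio of hypoxic to normoxic exosome RPM (log axis) for the 73 miRNAs in both libraries, with 95% exact counting intervals; the dashed lines are the thresholds 0.5 and 2, the dotted line is 7.69, where the share is equal, and red marks the 13 miRNAs under 50 RPM in normoxic cells. Intervals of 21 miRNAs lie wholly right of the dotted line and those of 29 wholly left of it, and no red point lies right of it.

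Of 19 hypoxia-responsive miRNAs, 11 were in both exosome libraries (57.9%, beside 9.54% of all 765), 2 in hypoxia only and 6 in neither. The list was chosen here and is shorter than the paper's set of known hypoxamiRs. Normoxic cells already listed 18 of the 19, beside 338 of all 765, so the 57.9% does not show enrichment in exosomes. Of the 11, 10 had an RPM ratio above 2 and none below 0.5, where 84.9% of all 73 were above 2 and 1.37% below 0.5. The median was 7.35 beside 6.73. On shares 5 were higher and 6 lower in hypoxia, beside 46.6% higher and 53.4% lower among the 73. The members spread over nearly the whole range, from miR-26a-5p at 0.871 and miR-192-5p at 2.55 to miR-24-3p at 16.5 and miR-23a-3p at 22.2. miR-181a-5p and miR-181b-5p, which share a seed, were close to the centre, at 8.43 (5.65 to 13.1) and 7.35 (4.87 to 11.5).

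The miRNAs of the related miR-23a and miR-23b clusters (miR-23, miR-24 and miR-27) had 5 members in both libraries. Their median ratio was 14.7, and their summed share was 1.97% in normoxia and 4.12% in hypoxia. miR-27a-3p was at 2.19 and 32.1 RPM, a ratio of 14.7 (9.86 to 22.7). Its close relative miR-27b-3p, with the same seed, was at 1.77 and 11.6 RPM, a ratio of 6.54 (4.12 to 10.9), and the intervals overlap. miR-23b-3p, the partner of miR-23a-3p in the other cluster, was listed at 0 in both exosome libraries although the normoxic cells had it at 625 RPM.

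The let-7 family, whose members lower growth-promoting messages such as Hmga2 and Ras, did not move as 1 block. let-7i-5p had a ratio of 16.1. let-7b-5p was at 4.55 and 28.2 RPM, a ratio of 6.19 (4.64 to 8.41). let-7c-5p had a ratio of 4.54 (2.96 to 7.23), let-7a-5p 3.73 (2.41 to 5.98), let-7g-5p 2.14 (1.38 to 3.38) and let-7f-5p 1.75 (0.940 to 3.37). The interval of let-7i-5p overlapped none of the other 5. let-7i-5p alone took 1890 of the 2574 hypoxic reads of the 7 miRNAs with this seed, and 113 of the 267 normoxic ones. The summed ratio of the seed was 9.26. How reads that match several of these similar sequences were counted is not given in the sources used here, and their part in the values was not tested.

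Other seeds were taken over the miRNAs with a matched sequence. The seed CAGUGCA had miR-148b-3p at 14.8, miR-152-3p at 12.2 and miR-148a-3p at 9.35, a summed ratio of 11.4 with every interval overlapping the others. The seed GAGAACU, that of miR-146a-5p and miR-146b-5p, held 11.3% of the normoxic and 17.98% of the hypoxic miRNA reads, nearly all of it miR-146a-5p. For the seed GCUACAU, miR-221-3p was at 11.6 (9.78 to 13.9) and miR-222-3p at 8.73 (4.68 to 18.1). The miR-30 family, which includes a member with no matched sequence, was taken by name. In it miR-30a-5p was at 22.4 (15.9 to 32.6) and miR-30d-5p at 9.94 (6.90 to 14.8), with intervals that do not overlap, and miR-30e-5p was listed in hypoxia only. The summed ratio of the 3 was 17.6. The muscle seed GGAAUGU, that of miR-1b and miR-1-3p, had a summed ratio of 0.291, from 33 reads in normoxia and 10 in hypoxia. Among the exosomal miRNAs with a sequence, 15 of 110 seeds were shared by at least 2, and these held 38 miRNAs.

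miRNAs made from neighbouring hairpins, within 10000 bases of each other in GRCr8, also differed. miR-199a-3p and miR-214-3p, which mice make from 1 transcript, had ratios of 12.4 (9.78 to 16.03) and 26.8. The other arm, miR-199a-5p, was at 1.60 and 7.45 RPM, a ratio of 4.65 (2.82 to 8.07), and the intervals of the 3 do not overlap. miR-143-3p and miR-145-5p, likewise made together, had 24.3 and 11.02 (7.67 to 16.3). For the neighbours miR-100-5p and let-7a-5p the ratios were 4.09 (3.20 to 5.29) and 3.73, with intervals that overlap. Of 7 sets of neighbours with at least 2 members in both libraries, 4 held a pair with intervals apart. The other 3 were let-7c-5p with let-7b-5p, miR-100-5p with let-7a-5p, and miR-222-3p with miR-221-3p. Each miRNA was placed at 1 locus only. Among the 4 was miR-24-3p with miR-27b-3p, although the miR-24-2 hairpin beside miR-27a also gives miR-24-3p, so its reads are not of that locus alone. let-7a-5p too has more than 1 hairpin.

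Among the miR-10, miR-99, miR-100 and miR-125 miRNAs, 6 of 15 were in both libraries, with a median of 6.08. miR-10a-5p was at 3.03 RPM in normoxia and 45.8 RPM in hypoxia, a ratio of 15.1 (10.8 to 21.8). miR-125b-5p was at 2.53 and 7.45 RPM, a ratio of 2.95 (1.93 to 4.61). miR-99b-5p was at 8.06 and miR-100-5p at 4.09, and miR-99a-5p had the lowest ratio of the 6, 2.47 (1.30 to 4.96).

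Of the lists for other tissues, the muscle and heart list had 1 of its 16 miRNAs in both exosome libraries, miR-1-3p in normoxia only at 10 reads, and 14 in neither. That is 87.5% in neither, near the 81.0% of all 765 miRNAs. The H9c2 cells themselves had little of it, since 4 of the 16 were listed in normoxic cells and all miR-133 and miR-208 arms were at 0. The highest was miR-499-5p, at 26.6 RPM in normoxic and 12.7 RPM in hypoxic cells and at 0 in both exosome libraries. Of the 11 blood cell miRNAs, miR-486 was at 3.54 and 18.1 RPM in the exosomes, a ratio of 5.10 (3.65 to 7.27), and at 1.54 and 1.13 RPM in the cells. miR-451-5p, another miRNA of red blood cells, was listed in hypoxic exosomes only, with 19 reads. The other 9 of the list were at 0 in both exosome libraries. Among them were miR-144-5p and miR-144-3p, and miR-142-3p, miR-150-5p and miR-223-3p of white blood cells. Of the 6 liver miRNAs, 2 were present, miR-122-5p and miR-192-5p, and miR-194-5p was at 0 in the exosomes. Among 21 neuronal miRNAs, 5 were in both libraries with a median ratio of 1.30. The 5 include miR-9a-5p and miR-9b-3p, which come from opposite strands and are complementary over 18 bases. miR-129-5p was the exception to the low ratios of that list, and miR-124-3p, its defining neuronal member, was at 0 in both. The part of RNA from other cells or from the medium in these values was not tested.

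Some families were listed at 0 throughout the exosomes, as were 81.0% of all 765 miRNAs. Of the 10 miR-15, miR-16, miR-195 and miR-497 miRNAs none was listed in either exosome library, while the normoxic cells had miR-16-5p at 517 RPM. The 8 miR-130 and miR-301 miRNAs were also at 0, although here the highest level in normoxic cells was only 46.3 RPM. Among 49 miRNAs with at least 1000 RPM in normoxic cells, 39 were in both exosome libraries and 8 in hypoxia only. The other 2, miR-20a-5p at 1070.1 RPM and miR-3596d at 1156 RPM, were in neither. A value of 0 means fewer than 10 reads and does not show absence.

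**Figure D4:**
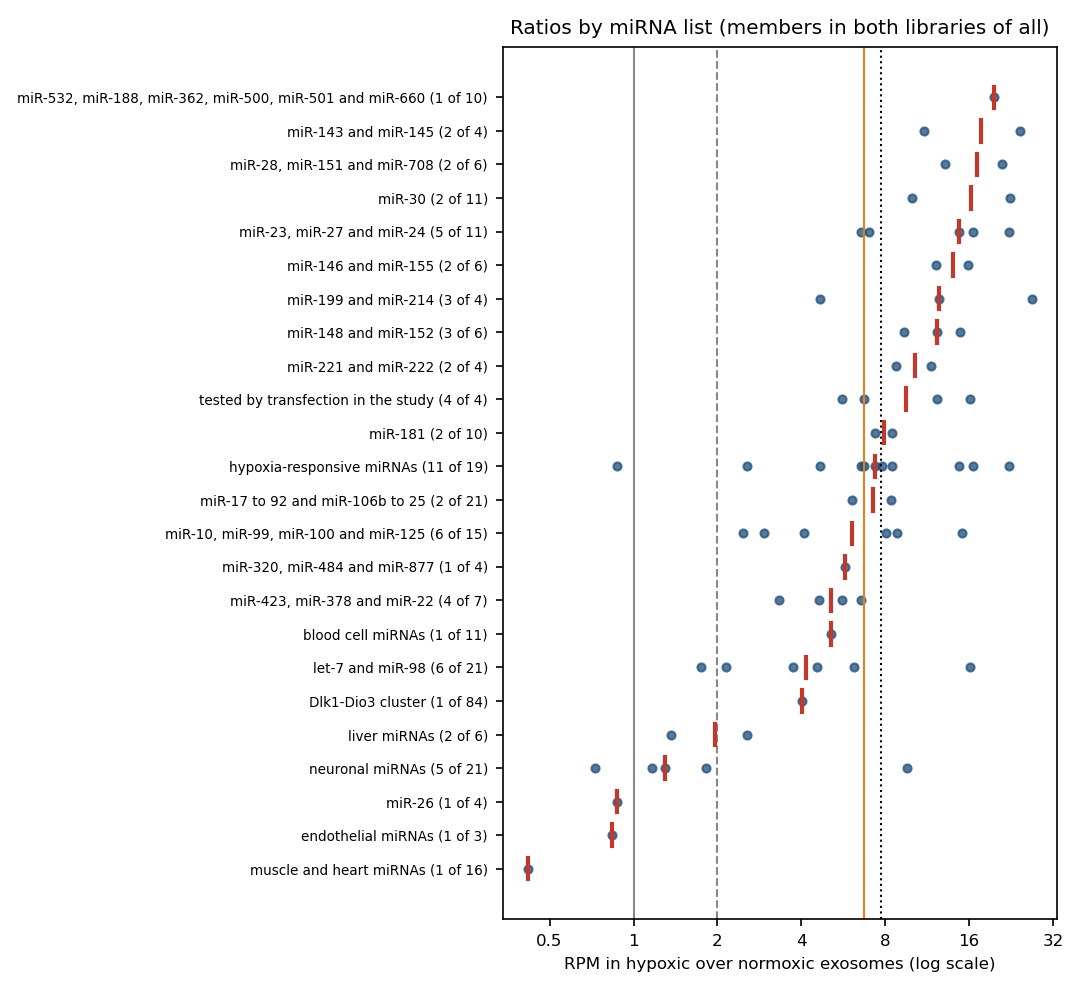
Ratio of hypoxic to normoxic exosome RPM (log axis) of the members of each miRNA list that were in both libraries (points), with the list median (red bar) and the number of members in both of all members in brackets; the grey lines are 1 (solid) and 2 (dashed), the orange line is the median of all 73 (6.73) and the dotted line is 7.69. The neuronal, liver, endothelial, muscle and miR-26 medians lie at 1.96 or below. The neuronal one covers 5 miRNAs, the liver one 2 and the other ones 1 each. The blood cell median, also of 1 miRNA, lies at 5.10, and the miR-143 and miR-145 median, of 2, lies at 17.6.

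The 71 miRNAs listed in hypoxic exosomes only were all scarce, with a median of 19 reads, a maximum of 141 and 2.42% of the hypoxic miRNA reads in all. The most abundant was miR-193b-3p with 11.4 RPM, at least 13.5-fold higher than the 10-read floor of the normoxic library. It was followed by miR-351-5p with 10.8 RPM (at least 12.9-fold), miR-106b-3p with 10.5 RPM (12.5-fold) and miR-99b-3p with 10.2 RPM (12.1-fold). Then came miR-34c-5p, which p53 induces, with 9.55 RPM, miR-28-3p with 9.07 RPM, miR-191a-5p with 7.69 RPM and miR-3560 with 7.29 RPM. Of the 71, 33 were more than 2-fold above the floor on RPM. These bounds use the reads as listed and leave out counting error.

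On shares much less remained. Because the normoxic library had fewer miRNA reads, a hypoxic miRNA needed more than 80.1 reads to exceed the share that 10 normoxic reads make up. Only 10 of the 71 did so, with miR-193b-3p at least 1.76-fold higher in share as listed, and none was more than 2-fold above the floor. These bounds also leave out counting error. Whether any of the 10 had a larger share beyond it was not tested. With the hypoxic miRNA reads scaled to the normoxic total, the 71 would have had a median of 2.37 reads. The expected number of miRNAs at 10 reads or more was then 65.4, against 144 in the full hypoxic library and 74 in the normoxic one. At equal numbers of miRNA reads, hypoxic exosomes were thus expected to show no more miRNAs than normoxic ones. This scaling takes out the difference in the miRNA total, not one in library size. The reads behind the scale were similar, 11866515 in normoxia and 12353415 in hypoxia.

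Most of the hypoxia-only miRNAs were also in the cells, 65 of the 71 in both cell libraries, at a median of 56.6 RPM in normoxic cells. The miRNAs in both exosome libraries had a median of 1019.5 RPM there. Both cell libraries listed 71 of these 73 miRNAs and 316 of all 765. Hypoxia-only exceptions were miR-412-5p, of the imprinted Dlk1-Dio3 locus, with 32 reads, and miR-375-3p, a miRNA of endocrine cells, both at 0 in the cells. miR-134-5p and miR-187-3p were at 0 in normoxic cells only, and miR-205 and miR-451-5p in hypoxic cells only. Some hypoxia-only miRNAs fell into families. Of all 765 miRNAs, 71 were hypoxia-only. The X-linked cluster with miR-322, miR-503, miR-351, miR-542 and miR-450 had 5 of its 12 miRNAs in hypoxic exosomes, 289 reads together, and none in normoxic ones. In the cells the summed level of this cluster was 4359 RPM in normoxia and 6078 RPM in hypoxia. The miR-34 family had 3 of 10 in hypoxic exosomes, miR-34c-5p with 118 reads, miR-34b-5p with 18 and miR-34a-5p with 17. Scaled to the normoxic miRNA total, miR-351-5p would have had 16.7 reads and miR-34c-5p 14.7. The other members of the cluster and the family would have been under the 10-read floor, from miR-542-3p at 9.74 downward.

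A hairpin gives a 5p and a 3p arm, of which the cell usually keeps mostly 1. Both arms were listed in an exosome library for 19 hairpins, and in both libraries for 5. In 4 hairpins the major arm of hypoxic exosomes was the minor arm of hypoxic cells. For miR-423 the 5p arm was 96.7% of the reads of both arms in normoxic exosomes (95.5% to 97.6%) and 93.7% in hypoxic exosomes (92.9% to 94.4%). In the cells it was 18.1% in normoxia and 19.3% in hypoxia, so the arms were reversed between vesicles and cells in both conditions. For miR-125b the 3p arm of its miR-125b-1 hairpin was 83.7% in normoxic (77.5% to 88.7%) and 93.9% in hypoxic exosomes (92.6% to 95.1%). In the cells it was 4.62% and 2.17%, while miR-125b-5p, which a second hairpin also makes, held the rest. let-7d and miR-125a had 28 reads each for both arms, in hypoxia only, and their intervals include equal arms.

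Arms also differed between hypoxia and normoxia in the vesicles. The 5p arm of miR-199a was 20.9% of its reads in normoxic exosomes (13.1% to 30.7%) and 8.98% in hypoxic exosomes (7.30% to 10.9%), against 50.8% and 41.3% in the cells. For miR-423 the difference between 96.7% and 93.7% was small but the intervals do not overlap. For miR-151 the 5p arm was 12.6% (6.48% to 21.5%) and 8.29% (7.06% to 9.66%), which counting error covers. The star arm miR-99b-3p took 39.5% of the reads of its hairpin in hypoxic exosomes (34.1% to 45.1%) and 3.03% in hypoxic cells. In normoxic exosomes it was listed at 0.

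Some miRNAs of the table are reverse complements of others. A search for at least 16 complementary bases gave 17 pairs with an exosomal member, of which 7 had both members in an exosome library, and the genes of all 7 overlap on opposite strands. The most abundant is shown with the complementary stretch in capitals.
miR-378a-3p: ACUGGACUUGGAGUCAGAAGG
miR-3557-5p: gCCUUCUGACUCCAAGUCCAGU
The same holds for the liver miRNA and its partner.
miR-122-5p: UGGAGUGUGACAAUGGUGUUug
miR-3591: AACACCAUUGUCACACUCCA
And it holds for miR-210-3p and its partner, which pair over their whole length.
miR-210-3p: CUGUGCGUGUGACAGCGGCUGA
miR-3574: UCAGCCGCUGUCACACGCACAG

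Whether the authors' counting used strand is not given in the sources used here. If it did not, the reads of such partners cannot be told apart. In normoxic cells the listed reads were far apart for some partners, 45333 for let-7a-5p and 34 for miR-3596a. For others they were close, 22551 for miR-29a-3p and 24004 for miR-3556a. miR-3557-5p had 1.08 reads for each read of miR-378a-3p in normoxic exosomes and 1.92 in hypoxic exosomes. In the cells the numbers were 1.84 and 1.85. miR-3591 had 0.341 and 0.428 reads for each read of miR-122-5p in the exosomes and 0.348 and 0.526 in the cells, and its exosome ratio of 1.71 (1.17 to 2.52) was as low as that of its partner. miR-3574 did not follow miR-210-3p. It had 12 reads in normoxia and 18 in hypoxia, 0.0496 and 0.00918 for each read of miR-210-3p. miR-3556a, the partner of miR-29a-3p, was at 2.19 and 24.9 RPM, a ratio of 11.4 (7.62 to 17.7), while miR-29a-3p itself had 18 reads in hypoxia and was at 0 in normoxia, although the cells had 1.06 and 1.21 reads of miR-3556a for each read of miR-29a-3p. miR-3560 had 90 reads in hypoxic exosomes and its partner miR-501-3p was at 0 in all 4 libraries.

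The exosome ratio was then set beside the level of each miRNA in the cells. The split at 50 RPM in normoxic cells was chosen after seeing the data, so its values are a description. Of the 73 miRNAs, 13 lay under it: miR-9a-5p, miR-9b-3p, miR-99a-5p, miR-122-5p, miR-127-3p, miR-192-5p, miR-193a-5p, miR-760-3p, miR-3574, miR-3586-5p, miR-3591, miR-1b and miR-486. Of them, miR-9a-5p and miR-9b-3p, like miR-122-5p and miR-3591, are partners from opposite strands. miR-3574 is the partner of miR-210-3p, which is not among the 13. If counting did not use strand, the reads of partners within the 13 cannot be told apart, and these may not be separate measures. The median ratio of the 13 was 2.21, from 0.418 to 5.15, and all 13 held a smaller share in hypoxic exosomes. The other 60 had a median of 8.58, from 0.835 to 29.7, with 26 smaller and 34 larger shares. Summed over the 13, reads were 467 in normoxia and 995 in hypoxia, a ratio of 2.05 on RPM. That was 3.43% and 0.914% of the miRNA reads. A ratio needs 10 reads in each library, which is a share of 0.0735% in normoxic and 0.00919% in hypoxic exosomes. The 33 hypoxia-only miRNAs under 50 RPM have no ratio, so 2.21 and 8.58 cover only miRNAs that passed the higher normoxic floor.

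In normoxic exosomes the median of the 13 was 28 reads, against 31.5 for the other 60. Each group holds only miRNAs that reached 10 normoxic reads, so these medians cannot tell whether low ratios go with scarcity there. That was not tested. miR-486 at 1.54 RPM, miR-127-3p at 1.35 RPM and miR-3586-5p, listed at 0, are examples of exosomal miRNAs that the normoxic cells barely held. miR-760-3p, with the highest ratio of the 13, was at 29.5 RPM in normoxic cells and at 2.36 and 12.1 RPM in the exosomes. Just inside the split miR-192-5p was at 43.2 RPM, and just outside it miR-151-5p was at 52.2 RPM with a ratio of 13.1. With the split at 20, 100 or 200 RPM the median of the miRNAs below it was 1.96, 2.27 or 2.51.

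Of the 71 hypoxia-only miRNAs, 33 were also under 50 RPM in normoxic cells, among them miR-193b-3p at 7.02 RPM, the most abundant of the 71 in hypoxic exosomes. Because they were listed at 0 in normoxic exosomes, the 33 cannot show whether miRNAs scarce in the cells kept to low values. Low ratios were also found among miRNAs that were abundant in cells. miR-26a-5p was at 5409 RPM there, let-7f-5p at 5841 RPM and miR-7a-5p at 3754 RPM. Across all 73 the Spearman correlation of the log2 ratio with the log2 level in normoxic cells (with 1 RPM added) was 0.334. It is a description over miRNAs of the same libraries, which share depth and scale. miRNAs listed at 0 in an exosome library do not enter it.

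Of the 71 miRNAs listed in all 4 libraries, 63 had fewer RPM in hypoxic than normoxic cells and more in hypoxic than normoxic exosomes. With each library scaled to its miRNA total, 31 went opposite ways and 40 the same way. The Spearman correlation of the log2 ratios of exosomes with those of cells was 0.0910 (n = 71). miR-146b-5p is an example of the first kind, with 3009.65 and 715 RPM in the cells and a ratio of 15.8 in the exosomes. miR-129-5p is another, at 3737 and 988 RPM in the cells.

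**Figure D5:**
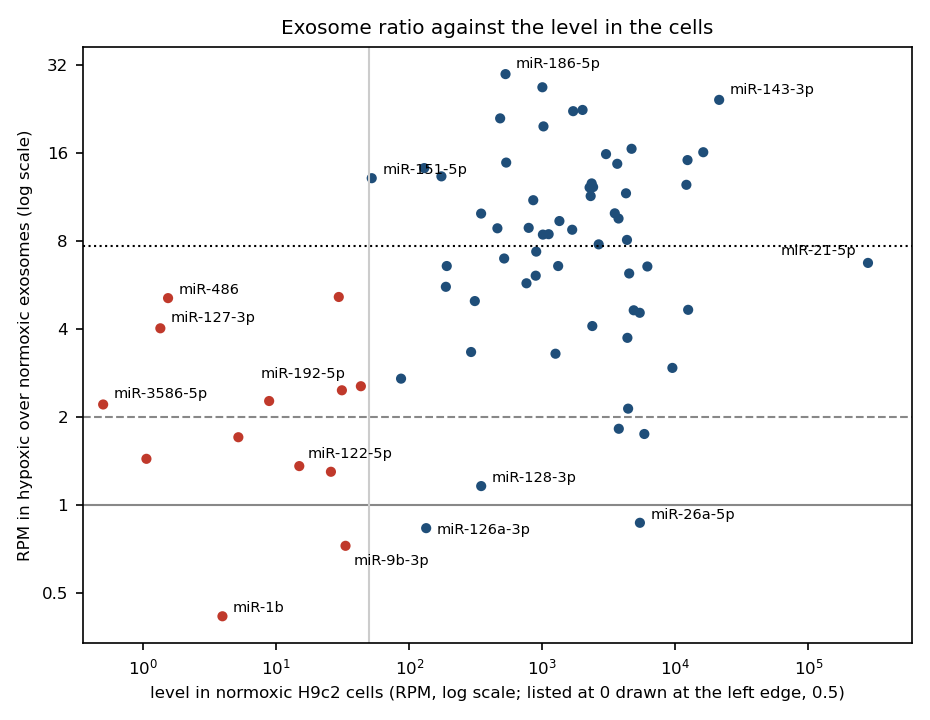
Ratio of hypoxic to normoxic exosome RPM (log axis) against the level in normoxic H9c2 cells (RPM, log axis), 1 point per miRNA in both exosome libraries (n = 73), with lines at ratios of 1 (solid), 2 (dashed) and 7.69 (dotted) and at 50 RPM (vertical). The 13 red points under 50 RPM lie between 0.418 and 5.15, all below the dotted line, and the blue points spread from 0.835 to 29.7. The 33 hypoxia-only miRNAs under 50 RPM have no ratio and are not drawn.

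Features of the mature sequence were compared with the ratio as a description. Over the 64 miRNAs in both libraries with a sequence, the Spearman correlation of the log2 ratio was 0.159 with GC content, -0.000908 with length and 0.178 with the normoxic exosome level. GGAG, a motif described for sorting into exosomes of human T cells, was sought on the given strand of the mature miRNA. It was in 5 of the 64, miR-185-5p, miR-125b-1-3p, miR-378a-3p, miR-339-5p and miR-122-5p, with a median ratio of 5.57 against 7.35 for those without. It was in 12.03% of the 133 exosomal miRNAs with a sequence and in 7.97% of all 690 miRNAs of the table with one. CCCU, described alongside it, was in 4 of the 64 with a median of 6.98 against 7.16, and in 8.27% and 9.57%.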

How the data were processed

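The authors enriched RNA of 18 to 30 nucleotides from cells and exosomes, sequenced 1 library for each of the 4 conditions and deposited RPM values for 765 rat miRNAs. The submitters' processing notes name the build Rnor 6.0. The aligner, counter, strand setting, treatment of reads with several matches and the reads behind the scale were not given in the sources used here, and if the scale counts all small RNAs, other exosomal RNA also sets it. From the deposited RPM, ratios and exact (Clopper-Pearson) 95% intervals were computed, without a count model and after a check on simulated data. A library at 0 was set at 10 reads for lower bounds. The miRNAs and 29 lists were chosen with earlier results of these data known. The rule named the 12 most abundant miRNAs of each exosome library, the 10 highest and 10 lowest ratios (50 reads or more in 1 library), the 8 most abundant found in 1 library, list members and arms. Antisense partners, other seed family members and miRNAs scarce in cells were named after their values were seen. Alternatives changed scale, read minimum, threshold, pseudocount and depth. Sequences, neighbours and arms came from RefSeq (GRCr8), and arms also from names. Python 3.11.15 was used (matplotlib 3.10.9, numpy 2.4.6, pandas 2.3.3, scipy 1.17.1).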

Additional observations from a re-analysis of the deposited data

Results flagged for a closer look

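Exosomes and cells went opposite ways under the same comparison of hypoxia with normoxia, on the RPM scale. The summed miRNA RPM was 7.69-fold higher in hypoxic than in normoxic exosomes, while in hypoxic cells it was 0.528 of the normoxic sum. The median ratio was 6.73 in exosomes (73 miRNAs) and 0.612 in cells (316 miRNAs). Of the 71 miRNAs listed in all 4 libraries, 63 were lower in hypoxic cells and higher in hypoxic exosomes, and with each library scaled to its miRNA total 31 went opposite ways. This contrast was not tested, since each condition had 1 library.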

How the results depend on the processing

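The RPM scale was replaced by 3 alternatives. With the miRNA total, the median ratio or the trimmed mean of M values set equal, the ratio taken as 1 was 7.69, 6.73 and 7.85. The count of miRNAs above 2-fold went from 62 to 10, 14 and 10, and the count below 0.5 from 1 to 21, 20 and 21. The median ratio of 6.73 became 0.875 with the miRNA total and 0.857 with the trimmed mean. It was 5.88 and 5.36 with 0.5 and 1 RPM added, 8.06 and 9.54 with at least 20 and 50 reads in both libraries, 4.02 over all miRNAs with 0 taken as 10 reads, and 8.58 without miRNAs under 50 RPM in normoxic cells, a choice made after seeing the data. The count above 2-fold was 21 at 50 reads and 95 with 0 taken as 10 reads. The count below 0.5 was 0 at 20 or 50 reads, at 3-fold, with the whole interval past the threshold, and without the miRNAs scarce in cells. On shares the count above 2 was 6 without the 12 most abundant miRNAs, 5 at 50 reads, 21 at 1.5-fold, 3 at 3-fold and 6 by interval, from 10. The count below 0.5 was 13 at 20 reads, 3 at 50 reads, 13 by interval and 11 without the miRNAs scarce in cells, from 21. At 50 reads 23 miRNAs were identified in normoxic and 77 in hypoxic exosomes, and thinning left 65.4 of the 144 hypoxic ones. A total of 28, 25 and 29 miRNAs that were above 2-fold on RPM fell below 1 with the miRNA total, the median ratio and the trimmed mean. In that order the ratios were 0.854, 0.976 and 0.836 for miR-423-3p, 0.854, 0.976 and 0.836 for miR-582-3p, 0.851, 0.972 and 0.833 for miR-27b-3p, 0.805, 0.920 and 0.789 for let-7b-5p and 0.791, 0.904 and 0.775 for miR-92a-3p. The next had 0.745, 0.852 and 0.730 for miR-320-3p, 0.725, 0.829 and 0.710 for miR-378a-3p, 0.669, 0.765 and 0.656 for miR-760-3p, 0.663, 0.758 and 0.650 for miR-486 and 0.648, 0.741 and 0.635 for miR-328a-3p. Lower were those with 0.605, 0.691 and 0.593 for miR-199a-5p, 0.603, 0.689 and 0.590 for miR-22-3p, 0.591, 0.676 and 0.579 for let-7c-5p, 0.532, 0.609 and 0.522 for miR-100-5p and 0.523, 0.598 and 0.512 for miR-127-3p. Then came 0.485, 0.555 and 0.475 for let-7a-5p, 0.434, 0.496 and 0.425 for miR-423-5p, 0.428, 0.490 and 0.420 for miR-101a-3p, 0.383, 0.438 and 0.375 for miR-125b-5p and 0.352, 0.402 and 0.345 for miR-339-5p. The lowest were 0.332, 0.379 and 0.325 for miR-192-5p, 0.321, 0.367 and 0.315 for miR-99a-5p, 0.295, 0.338 and 0.289 for miR-193a-5p, 0.287, 0.328 and 0.281 for miR-3586-5p and 0.278, 0.318 and 0.272 for let-7g-5p. With the miRNA total and the trimmed mean alone, the values were 0.956 and 0.937 for miR-181b-5p, 0.906 and 0.887 for miR-24-2-5p and 0.875 and 0.857 for miR-21-5p. miR-210-3p was below 1 only with the trimmed mean, at 0.992. The median under the split by cell level kept its side at 20, 100 and 200 RPM. No paired analysis was possible because each condition had 1 library and the labels carry no replicate numbers. For the same reason no library could be left out. The low number of miRNA reads in normoxic exosomes, with a median of 31 reads for the 73 miRNAs, limits most single ratios.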
